A study of Mus musculus with 6 samples.

Results

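The insulin and IGF signalling components described here are 10 genes of mouse islet cells: the ligands *Igf1* and *Igf2*, the receptors *Igf1r*, *Igf2r* and *Insr*, the adaptors *Irs1* and *Irs2*, and the binding proteins *Igfbp3*, *Igfbp4* and *Igfbp5*. They were chosen as a signalling family by name, and every array probe whose RefSeq transcript maps to one of them was kept, which gave 14 probes of 56605 on the array and 10 of the 45616 features that remain with 1 probe per gene. The samples were islet cells of P1 pups (postnatal day 1) that carry *Wnt4eGFPCre*, in which the *Wnt4* locus drives a Cre recombinase, together with *mTmG*, a reporter that switches from membrane Tomato to membrane GFP once Cre has acted. The mice were crossed to C57BL/6J, the islets of 3 or 4 pups were pooled for each sample, sexes were not separated, and cells were sorted by flow cytometry into mGFP+ (Wnt4hi) and mGFP- (Wnt4low) fractions, 3 arrays each: Wnt4hi replicates 2, 3 and 4 and Wnt4low replicates 1, 3 and 4. The reporter is a lineage trace, so mGFP marks cells that transcribe or have transcribed *Wnt4*, and the gate does not select β-cells from other islet cells.

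IGF1 and IGF2 are secreted growth factors that act mainly through the IGF1 receptor, a tyrosine kinase closely related to the insulin receptor, and both receptors hand their signal to the insulin receptor substrates IRS1 and IRS2, which recruit PI3-kinase. IGF2R lacks kinase activity and takes IGF2 to lysosomes for degradation, and the IGF binding proteins hold IGFs in the extracellular fluid, where they prolong their life or keep them from the receptor. In islets, insulin and IGF signalling is known for its part in β-cell growth, survival and secretory function, and *Irs2* in particular is needed for β-cell mass in mice.

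Every one of the 14 probes gave a signal well above background on each of the 6 arrays, so that each level below was measured on both sides. The arrays were of similar quality, with 70.5% to 79.5% of spots well above background, a median intensity of 10.8 to 15.6 times the local background, 0 saturated spots and 1 slide for all 6. *Wnt4* itself, which checks the sort, read 11.20, 10.53 and 10.77 on the Wnt4hi arrays and 9.85, 10.10 and 9.31 on the Wnt4low arrays (normalized log2 intensity), without overlap and with a log2 difference of 1.08. β-cell transcripts were present in both fractions, and 8 of 9 β-cell markers had a higher mean in Wnt4hi cells, 5 of them past the unadjusted threshold of 0.05, with a median log2 difference of 0.97. Some other endocrine markers also had higher means: 5 of 5 for α-cells, 2 of them past that threshold, with a median of 2.04, *Ppy* of PP cells differed by 1.22, and *Ghrl* of ε-cells by 2.10 (limma adjusted p = 0.0491). For α-cell markers Wnt4low replicate 1 stood apart, with a mean log2 level of 9.27 against 11.66 and 11.72 on the other Wnt4low arrays. The Wnt4hi arrays read 12.34 to 13.25. Of 3 δ-cell markers, 2 were lower and 1 higher at the unadjusted threshold. Markers of endothelial cells, which line blood vessels, were all lower in Wnt4hi cells: 10 of 10 passed the unadjusted threshold of 0.05 in limma's empirical Bayes test and 8 passed the adjusted one, with a median log2 difference of -3.79. The summed intensity of these 10 markers was 11.57 to 12.09 (log2) on the Wnt4hi and 15.00 to 15.83 on the Wnt4low arrays. *Tek* and *Tie1* were well above background on 0 Wnt4hi arrays and the other endothelial markers on 2 or 3. *Tek* and *Tie1* were named after their values were seen. Of 10 markers of mesenchymal cells and pericytes, the connective and vessel-wrapping cells of the islet, 7 were lower at the unadjusted threshold and 0 at the adjusted one, with summed intensities of 15.11 to 16.05 and 16.35 to 16.76 and every marker above background in both fractions. Of 7 macrophage markers, 3 were lower at the unadjusted threshold, with mean log2 levels of 10.30 to 10.70 and 11.15 to 11.49. Their summed intensities, 15.94 to 16.19 and 16.04 to 16.48, are mostly those of *Itgam*. These lists are set beside the IGF genes below, and their part in those results was not tested. In such bulk fractions, fewer cells of a type and less RNA per cell cannot be told apart.

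The question the comparison addresses is how the signalling genes of the islet differ between cells with high and low *Wnt4* at the start of postnatal maturation. Both IGF ligands, the receptors *Igf1r* and *Insr* and 2 of the 3 binding proteins were lower in Wnt4hi cells at the unadjusted threshold of 0.05, *Insr* on 1 of its 2 probes and not by their mean, and the adaptors were not distinguishable. By mean, 9 of the 10 genes were lower, and 6 passed that threshold: *Igf1*, *Igf2*, *Igf1r*, *Insr*, *Igfbp3* and *Igfbp4*. The 6 became 3 without Wnt4low replicate 4 and 2 in the authors' table, which listed 6 of the 10. Across all features 5.53% were lower at that threshold. None of the 10 was higher at it, against 5.06% of all features. After Benjamini-Hochberg adjustment over all features, 0 of the 10 passed in limma, where 0.406% of all features were lower past the adjusted threshold. The median log2 difference of the 10 genes was -1.05, and that of all features was 0.07. In 5 genes all 3 Wnt4hi arrays lay below all 3 Wnt4low arrays, which held for 6.44% of all features.

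Counted by probe, 12 of the 14 were lower by mean, 7 were lower at the unadjusted threshold, and 1, a probe of *Igf2*, passed the adjusted one. The shares of all probes were 6.12% lower unadjusted and 0.440% lower adjusted. In 6 of the 14 probes the fractions did not overlap with Wnt4hi below, a pattern found in 7.13% of all probes. With 3 arrays against 3, an exact permutation test cannot give a two-sided p below 0.1, so the p values given are limma's after adjustment. They set each difference against the spread between these pooled samples within the fractions, which limma moderates with the variance of all features.

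**Figure D1:**
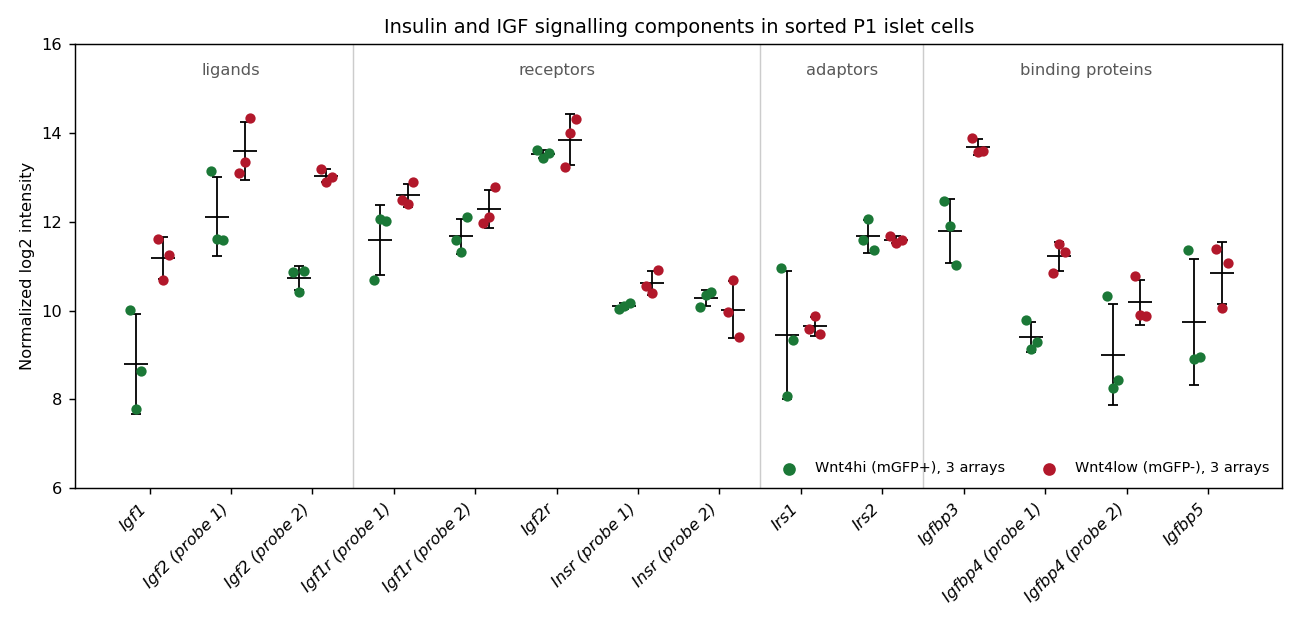
Normalized log2 intensity (vertical axis) of the 14 probes of the 10 genes, grouped by role. Points are arrays (green, 3 Wnt4hi arrays; red, 3 Wnt4low arrays, each set drawn from the lowest to the highest replicate number), bars are the mean and SD, and probe 1 is the probe with the higher mean. The green points of *Igf1*, *Igf2* probe 2, *Igfbp3* and *Igfbp4* probe 1 all lie below the red ones, whereas those of *Irs1* and *Irs2* overlap them. Heights are not comparable between probes.

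The 3 genes with the smallest p at gene level were *Igfbp4*, *Igfbp3* and *Igf1*. The 250 bases before their annotated start (RefSeq, assembly GRCm38.p6, written 5′ to 3′ on the gene's strand) are shown so that these genes, which were low on the same arrays, can be compared by sequence. The windows are chr10:87860861-87861110 on the plus strand for *Igf1*, chr11:7213924-7214173 on the minus strand for *Igfbp3* and chr11:99040994-99041243 on the plus strand for *Igfbp4*. Capitals mark a match to TATAAA, the core of the TATA box.
Igf1: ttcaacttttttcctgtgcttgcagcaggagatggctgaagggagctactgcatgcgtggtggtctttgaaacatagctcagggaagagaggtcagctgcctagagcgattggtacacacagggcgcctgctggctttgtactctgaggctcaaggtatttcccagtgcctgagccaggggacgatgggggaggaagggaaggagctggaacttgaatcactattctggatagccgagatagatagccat
Igfbp3: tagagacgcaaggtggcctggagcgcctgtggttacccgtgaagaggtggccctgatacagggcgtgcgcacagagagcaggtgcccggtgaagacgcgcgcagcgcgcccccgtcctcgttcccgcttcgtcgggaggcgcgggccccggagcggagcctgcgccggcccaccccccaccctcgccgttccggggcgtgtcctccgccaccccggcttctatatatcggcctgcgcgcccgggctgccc
Igfbp4: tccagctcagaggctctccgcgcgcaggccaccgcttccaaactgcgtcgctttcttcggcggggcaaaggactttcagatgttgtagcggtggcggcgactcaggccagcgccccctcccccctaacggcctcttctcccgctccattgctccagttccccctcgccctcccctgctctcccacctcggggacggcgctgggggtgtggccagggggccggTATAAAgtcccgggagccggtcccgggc

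The window of *Igf1* held 52.8% G and C, close to the median of 52.4% over 32851 windows of the same length, whereas those of *Igfbp3* and *Igfbp4* held 73.2% and 69.2%. Windows were found for 9 of the 10 genes, 12 windows in all, since *Igf2* has several starts. Both strands were searched for exact letters. TATAAA occurred in 1 window, that of *Igfbp4*, and in 12.4% of all windows. The GC box GGGCGG occurred in 6 windows, of *Igf2* (2 starts), *Igf1r*, *Igf2r*, *Irs1* and *Irs2*, against 32.7% of all windows. The E-box CACGTG occurred in the windows of *Igf2r*, *Irs1* and *Irs2* and in 6.02% of all windows. GTAAACA, a core bound by FOXO factors, was in 0 of the 12 and in 3.17% of all windows, and TGACTCA, bound by AP-1, was in 0 of the 12 and in 4.46% of all windows. A match is a description of the letters in these windows only.

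Of the ligands, *Igf1*, a growth factor that acts both locally and through the circulation, had the largest difference of the 10 genes. Its log2 intensity was 10.01, 7.78 and 8.63 on Wnt4hi replicates 2, 3 and 4, and 11.62, 10.69 and 11.24 on Wnt4low replicates 1, 3 and 4. All 3 Wnt4hi arrays were below all Wnt4low arrays, with replicate 2 the nearest to them. The log2 difference was -2.38 ± 0.58 (SE, n = 3 arrays per fraction; limma adjusted p = 0.199), which is a ratio of 5.19 in favour of Wnt4low cells, and the 95% interval ran from -3.78 to -0.97. *Igf1* passed the unadjusted threshold with any 1 array left out, at -2.96 to -1.87.

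*Igf2*, the fetal growth factor of the pair and an imprinted gene, was read by 2 probes. The brighter probe, A_51_P516833, gave 13.14, 11.62 and 11.59 in Wnt4hi and 13.09, 13.35 and 14.33 in Wnt4low cells. Here Wnt4hi replicate 2 lay just above the lowest Wnt4low array, and the others lay well below. The difference was -1.48 ± 0.53 (SE; limma adjusted p = 0.387). It no longer passed the unadjusted threshold without Wnt4hi replicate 3 (-1.24), Wnt4hi replicate 4 (-1.21), Wnt4low replicate 3 (-1.60) or Wnt4low replicate 4 (-1.11).

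The other *Igf2* probe, A_55_P2118173, separated the fractions cleanly. Its log2 intensity was 10.86, 10.41 and 10.90 in Wnt4hi and 13.20, 12.90 and 13.01 in Wnt4low cells. The Wnt4hi arrays stood together, replicate 2 included, and the nearest arrays of the fractions were far apart relative to the spread within each. The probe differed by -2.31 ± 0.19 (SE), a ratio of 4.96, with a 95% interval from -2.76 to -1.86, and it was the only member probe past the adjusted threshold (limma adjusted p = 0.0247 over all probes). With 1 array left out the difference was -2.39 to -2.18 and stayed past the unadjusted threshold, but 0 member probes passed the adjusted one in any of these 6 fits. Among protein-coding genes, *Igf2* lies between *Mrpl23* and *Ins2* on the RefSeq map. *Ins2*, an insulin gene, moved the other way, at 16.65, 16.66 and 16.61 in Wnt4hi and 16.01, 16.42 and 15.81 in Wnt4low cells, with all Wnt4hi arrays above (0.56 ± 0.19 SE, limma adjusted p = 0.347).

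Of the receptors, *Igf1r*, the signalling receptor for both ligands, had a lower mean on both probes and passed the unadjusted threshold on 1 of them. The brighter probe, A_55_P2736764, read 10.68, 12.06 and 12.02 in Wnt4hi and 12.48, 12.40 and 12.89 in Wnt4low cells. All Wnt4hi arrays were lower, and replicate 2 was by far the lowest. The difference was -1.01 ± 0.40 (SE; limma adjusted p = 0.457). Without Wnt4hi replicate 2 it was -0.56 and still past the unadjusted threshold, and it lost the call without Wnt4low replicate 1 (-1.04), 3 (-1.10) or 4 (-0.86). The second probe, A_51_P318365, gave 11.59, 11.33 and 12.10 against 11.96, 12.11 and 12.77, with overlap, and -0.61 ± 0.30 (SE; limma adjusted p = 0.545). It passed the unadjusted threshold without Wnt4hi replicate 4, at -0.82, and was -0.37 without Wnt4low replicate 4.

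*Insr*, the insulin receptor, was read in opposite directions by its probes. Probe A_55_P2173927 gave 10.04, 10.11 and 10.17 in Wnt4hi and 10.56, 10.39 and 10.92 in Wnt4low cells, and all Wnt4hi arrays were lower and close together. The difference was small, -0.52 ± 0.17 (SE; limma adjusted p = 0.351), and the unadjusted call was lost without Wnt4hi replicate 2 (-0.49), Wnt4hi replicate 3 (-0.52) or Wnt4low replicate 4 (-0.37). Probe A_52_P6490 gave 10.08, 10.34 and 10.42 against 9.97, 10.69 and 9.41, with the Wnt4low arrays on either side of all Wnt4hi arrays. Its difference was 0.26 ± 0.33 (SE; limma adjusted p = 0.860), and it turned to -0.051 without Wnt4low replicate 4. The mean of both probes differed by -0.13 (limma adjusted p = 0.833), so the direction of *Insr* rests on the probe chosen.

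*Igf2r*, the receptor that clears IGF2, was not distinguishable between the fractions over all 6 arrays in the fit without a block. Blocked on replicate number, the fit gave -0.68, past the unadjusted threshold (limma adjusted p = 0.417). Its log2 intensity was 13.60, 13.42 and 13.54 in Wnt4hi and 13.22, 14.01 and 14.32 in Wnt4low cells. Wnt4low replicate 1 lay below the Wnt4hi arrays and the other Wnt4low arrays above them. The difference was -0.33, with a 95% interval from -1.03 to 0.38 (limma adjusted p = 0.789), and without Wnt4low replicate 1 it was -0.65 and past the unadjusted threshold (limma adjusted p = 0.317). Without Wnt4low replicate 4 it was -0.093.

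The adaptors gave no call. *Irs1* read 10.95, 8.08 and 9.34 in Wnt4hi and 9.57, 9.89 and 9.48 in Wnt4low cells. The Wnt4hi arrays lay on both sides of the tight Wnt4low arrays, and the difference was -0.19 with a wide 95% interval of -1.86 to 1.48 (limma adjusted p = 0.959). It was -0.93 without Wnt4hi replicate 2 and 0.50 without Wnt4hi replicate 3. *Irs2* read 11.58, 12.07 and 11.36 in Wnt4hi and 11.69, 11.52 and 11.58 in Wnt4low cells, with overlap. Its difference was 0.07, with a 95% interval from -0.43 to 0.58 (limma adjusted p = 0.945), so that a change of the size seen in *Igf1* or *Igfbp3* lay outside the interval, and it turned to -0.13 without Wnt4hi replicate 3.

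Of the binding proteins, *Igfbp3*, which in serum carries most IGF, was lower in all Wnt4hi arrays. Its log2 intensity was 12.46, 11.90 and 11.02 in Wnt4hi and 13.89, 13.58 and 13.60 in Wnt4low cells. The Wnt4low arrays were close together and the Wnt4hi arrays spread widely below them. The difference was -1.90 ± 0.37 (SE; limma adjusted p = 0.118), a ratio of 3.73, and leaving out 1 array gave -2.25 to -1.51, each past the unadjusted threshold.

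*Igfbp4*, which mostly inhibits IGF action until it is cleaved by the protease PAPP-A, had the smallest p of the 10 genes. Probe A_52_P257502 gave 9.78, 9.13 and 9.30 in Wnt4hi and 10.85, 11.50 and 11.31 in Wnt4low cells, without overlap. The difference was -1.81 ± 0.25 (SE; limma adjusted p = 0.0575), a ratio of 3.51, with a 95% interval from -2.42 to -1.21. It stayed past the unadjusted threshold with any 1 array left out, at -1.99 to -1.67. The other probe, A_51_P398971, gave 10.32, 8.25 and 8.45 against 10.78, 9.89 and 9.88. There Wnt4hi replicate 2 lay among the Wnt4low arrays, and the difference was -1.17 ± 0.60 (SE; limma adjusted p = 0.569). Without Wnt4hi replicate 2 it was -1.82 and past the unadjusted threshold (limma adjusted p = 0.119), and without Wnt4hi replicate 3 it was -0.80 and not past it.

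*Igfbp5*, a binding protein that attaches to extracellular matrix, did not pass over all 6 arrays in the fit without a block. Blocked on replicate number, the fit gave -1.63, past the unadjusted threshold (limma adjusted p = 0.146). Its log2 intensity was 11.37, 8.90 and 8.96 in Wnt4hi and 11.39, 10.05 and 11.07 in Wnt4low cells. Wnt4hi replicate 2 lay level with the highest Wnt4low array, while the other Wnt4hi arrays lay below every Wnt4low array. The difference was -1.09, with a 95% interval from -2.90 to 0.71 (limma adjusted p = 0.710). Without Wnt4hi replicate 2 it was -1.90 and past the unadjusted threshold (limma adjusted p = 0.170), and without Wnt4hi replicate 3 or 4 it was -0.68 or -0.70 and not past it.

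**Figure D2:**
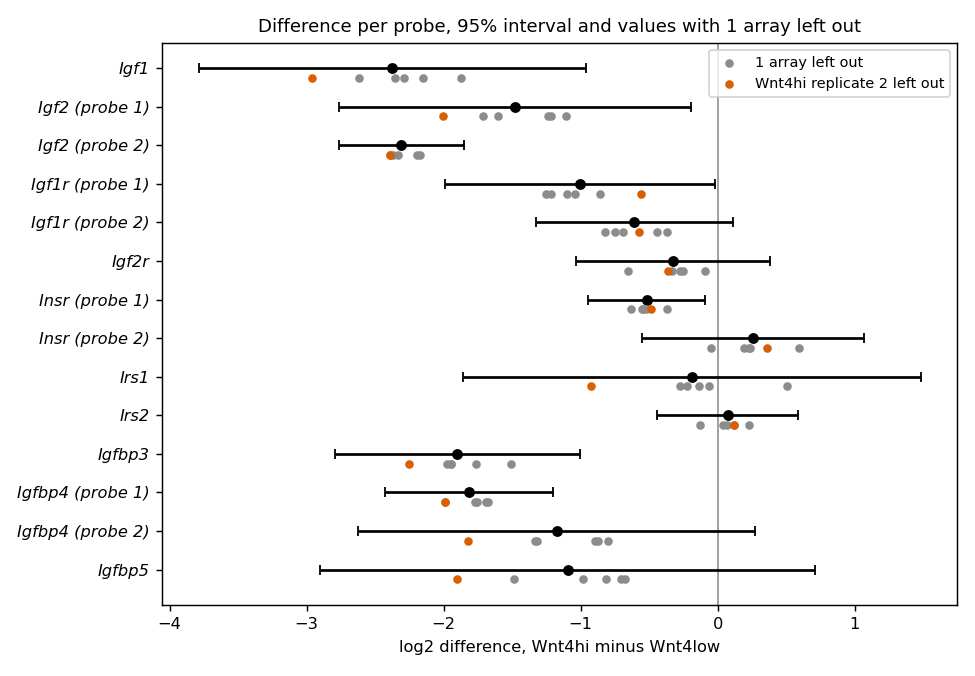
Log2 difference, Wnt4hi minus Wnt4low (horizontal axis), of the 14 probes. Black points and bars are limma's estimate and 95% interval over 6 arrays, grey points the estimates with 1 array left out, and the orange point the estimate without Wnt4hi replicate 2. *Igf2* probe 2 has the narrowest interval away from 0 among the ligands and binding proteins, and the orange point of *Igfbp5* lies at -1.90 while the black one lies at -1.09.

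The members differed in how much the Wnt4hi arrays varied. The SD among Wnt4hi arrays was 1.44 for *Irs1*, 1.41 for *Igfbp5* and 1.13 for *Igf1*, where the median over all features was 0.23. It was 0.06 for *Insr* on its brighter probe (0.18 on the other) and 0.09 for *Igf2r*. Among Wnt4low arrays the largest SD of a gene was 0.70, for *Igfbp5*. Wnt4hi replicate 2 was the highest of the Wnt4hi arrays for 8 of the 14 member probes and the lowest for 3. It was also the highest for 9 of the 10 markers of mesenchymal cells and pericytes, whose mean level was 12.05 on that array, 10.75 and 11.14 on the other Wnt4hi arrays and 12.40 to 12.64 on the Wnt4low arrays. For endothelial markers the same array read 8.41, against 7.95 and 8.08 on the other Wnt4hi arrays and 11.50 to 12.31 on the Wnt4low arrays. The part of these cell types in the values of the IGF genes was not tested.

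**Figure D3:**
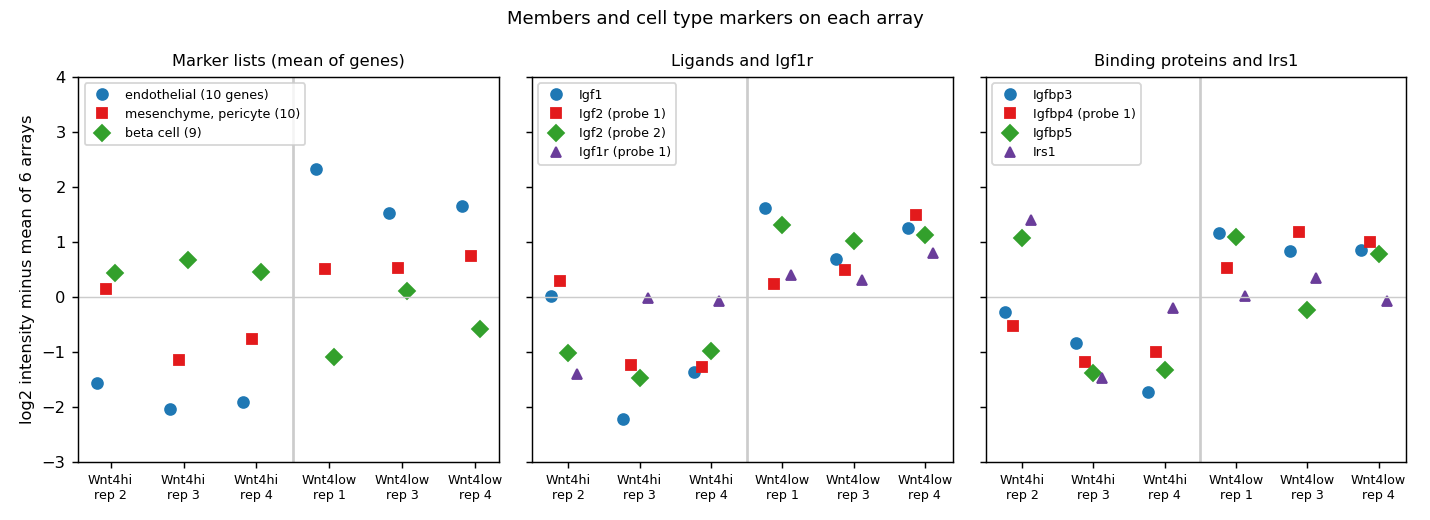
Log2 intensity minus the mean of the 6 arrays (vertical axis) on each array, for 3 marker lists (left; mean over the genes of the list), the ligands and *Igf1r* probe 1 (middle) and the binding proteins and *Irs1* (right). On Wnt4hi replicate 2 the mesenchymal markers, *Igf2* probe 1, *Igfbp5* and *Irs1* stand above their values on the other Wnt4hi arrays, while *Igf2* probe 2 does not stand apart and *Igf1r* probe 1 is lower.

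The genes whose centred levels over the 6 arrays lay closest to each member were found among 16154 other genes well above background on all arrays, by the root mean square difference in log2. For *Igf1* these were *Flna*, a cytoskeletal cross-linker (0.20), and *Qk*, an RNA-binding protein (0.22). For *Igf2* they were *Ltbp1* and *Tnc* (0.20 and 0.21), which encode matrix proteins, and for *Igfbp5* *Plod1* and *Pcolce* (0.21 and 0.25), which act in collagen processing. *Igfbp4* was nearest to *Cdkn1c*, a cell cycle inhibitor (0.11), and *Gjc1*, a connexin (0.12), and *Igfbp3* to *Arrb1* and *Peak1* (0.19 and 0.23). *Igf1r* was nearest to *Pttg1* and *Tanc1*, *Igf2r* to *Nup153* and *Nrsn1*, *Insr* to *Actr2* and *Setbp1*, *Irs1* to *Polb* and *Mrc2*, and *Irs2* to *Cabin1* and *Hes5*, at 0.05 to 0.21. With 6 arrays and so many genes, near matches are given as a description only.

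Beyond the 10 members, 68 further genes of the insulin and IGF pathway were examined from a written list. Of these, 10 were lower and 4 higher in Wnt4hi cells at the unadjusted threshold, and 1 was lower at the adjusted one. The shares of all features were 5.53% lower, 5.06% higher and 0.406% lower after adjustment. The median log2 difference of the list was 0.08, and -0.00072 without Wnt4hi replicate 4. In 9 of the 68 all Wnt4hi arrays lay below, as in 6.44% of all features, and in 4 all lay above, as in 9.63%.

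Among ligands and receptors, *Ins1* differed by 0.43 ± 0.20 (SE) and did not pass the unadjusted threshold (limma adjusted p = 0.542). *Insrr*, an orphan receptor of the insulin receptor family, was higher at 1.09 ± 0.42 (SE; limma adjusted p = 0.428) with overlapping arrays. Its other probe read 10.93, 10.14 and 10.58 in Wnt4hi and 8.08, 9.54 and 8.90 in Wnt4low cells, without overlap, a difference of 1.71 (limma adjusted p = 0.179 over all probes).

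Of the 7 binding proteins *Igfbp1* to *Igfbp7*, 3 were lower at the unadjusted threshold and 0 higher, against 5.53% and 5.06% of all features. Beside *Igfbp3* and *Igfbp4*, this was *Igfbp7*, which read 13.02, 12.10 and 13.01 in Wnt4hi and 13.82, 13.71 and 13.83 in Wnt4low cells, without overlap (-1.08 ± 0.27 SE, limma adjusted p = 0.213). *Igfbp6* differed by -0.94 (limma adjusted p = 0.568), *Igfbp2* by 0.45 (limma adjusted p = 0.678) and *Igfbp1* by 1.21 (limma adjusted p = 0.602), each with overlapping arrays. *Igfbp6* was highest on Wnt4low replicate 1, at 10.56 against 9.29 and 8.70 on the other Wnt4low arrays. *Igfbp2* was highest on Wnt4hi replicate 2, at 11.26 against 10.45 and 10.26 on the other Wnt4hi arrays. *Igfbp1* was well above background on 2 of the 3 Wnt4low arrays.

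Of 4 listed genes that control cleavage of binding proteins, *Stc1* and *Pappa* were lower, *Pappa2* was higher and *Stc2* did not pass the unadjusted threshold. *Stc1*, a stanniocalcin that inhibits PAPP-A, read 9.65, 9.13 and 8.57 in Wnt4hi and 11.49, 11.58 and 12.09 in Wnt4low cells. The fractions were far apart, with a difference of -2.60 ± 0.32 (SE; limma adjusted p = 0.0439), a ratio of 6.08, and it was the gene past the adjusted threshold. That call ended in a plain unpaired test per feature, in a fit blocked on replicate number and without Wnt4hi replicate 3 or 4 or Wnt4low replicate 1 or 4, where 0 features of the whole array passed. Without Wnt4hi replicate 2 only 1 feature passed, and without Wnt4low replicate 3 only 9. Whether *Stc1* was among them was not examined. *Pappa2*, which encodes a protease of IGFBP3 and IGFBP5, went the other way, at 10.28, 9.28 and 10.44 against 8.32, 8.93 and 8.26, without overlap (1.50 ± 0.36 SE, limma adjusted p = 0.189). Its other probe differed by 1.88, also without overlap. *Pappa*, which encodes PAPP-A, differed by -0.73 without overlap (limma adjusted p = 0.465) and was well above background on 2 of the 3 Wnt4hi arrays. *Stc2*, another stanniocalcin, differed by 0.23 with overlap (limma adjusted p = 0.776). *Pappa* and *Stc2* were named after their values were seen.

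Counts in the intracellular arms stand beside 5.53% of all features lower and 5.06% higher at the unadjusted threshold. Of 7 adaptors 1 passed: *Gab1* was lower at 10.19, 10.64 and 9.49 against 10.88, 11.32 and 12.36 (-1.41, limma adjusted p = 0.338). Of 12 genes of the PI3K-AKT arm, 3 were lower. Among them *Pik3cd*, a catalytic subunit, differed by -1.53 on its brightest probe (limma adjusted p = 0.158) and by -0.08 to 0.15 on the 3 other probes. *Pik3cb*, another catalytic subunit, differed by -1.26 (limma adjusted p = 0.418) and by 0.32 on its other probe. Both probes of *Pik3cb* were dim, the first well above background on 2 Wnt4hi and 3 Wnt4low arrays and the other on 2 and 1, so these differences are uncertain. The third was *Pik3r3*, a regulatory subunit. Among the negative regulators, *Phlpp1* differed by -0.98 and *Socs3* by -0.49, and both were lower at the unadjusted threshold. *Pik3r3*, *Phlpp1* and *Socs3* were named after their values were seen. In the RAS-MAPK arm 1 of 12 genes passed, the kinase gene *Braf*, at 11.32, 11.29 and 11.29 against 9.83, 11.07 and 9.76 (1.08, limma adjusted p = 0.352), while its other probes overlapped. Of 4 FOXO factors, 8 genes of the mTOR arm and 3 IGF2 mRNA binding proteins, 0 passed the unadjusted threshold in limma, with the smallest adjusted p at 0.66.

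**Figure D4:**
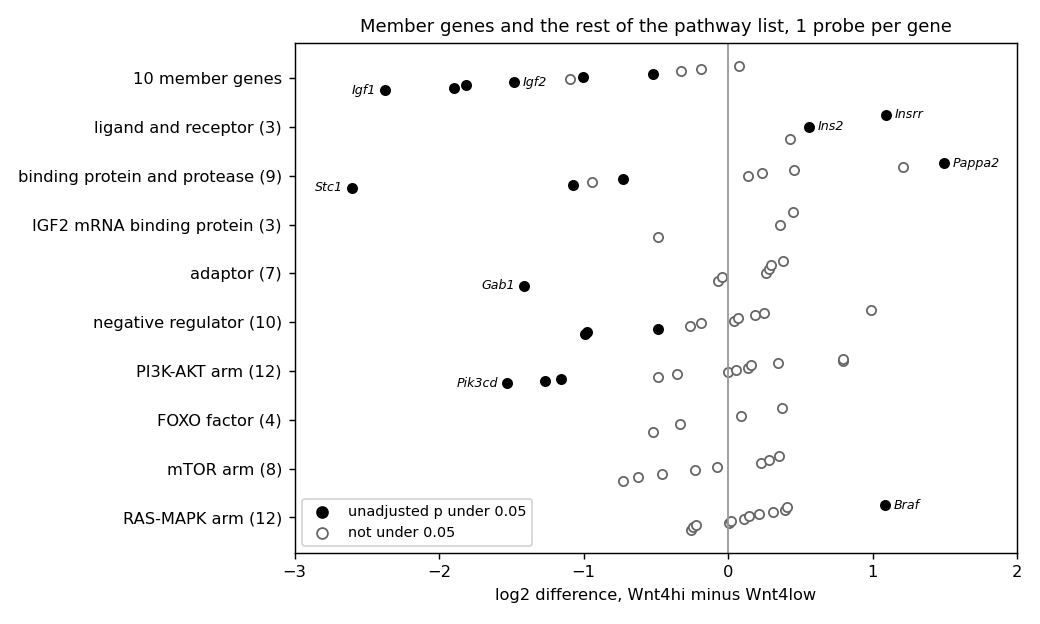
Log2 difference, Wnt4hi minus Wnt4low (horizontal axis), of the 10 member genes (top) and the 68 further pathway genes by role, with 1 probe per gene. Filled points passed the unadjusted threshold of 0.05. The member genes reach from -2.38 to 0.07, and the pathway list from -2.60 (*Stc1*) to 1.50 (*Pappa2*) with a median of 0.08.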

How the data were processed

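Islet cells of P1 *Wnt4eGFPCre; mTmG* pups were sorted by mGFP, and their RNA was amplified, labelled with Cy5 and hybridised to 1-color Agilent SurePrint G3 Mouse arrays, 3 per fraction. The authors deposited scanner output with spot and background intensity, not normalized, and a table of normalized log2 values. The software was Agilent Feature Extraction, version 9.1 per the submitters' processing notes and 12.0.1.1 per the file headers. Groups and replicate numbers were taken from the sample labels.

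Median intensities were corrected with normexp (offset 50), normalized by quantiles over spots that are not controls, and averaged per probe, without spots marked as outliers. Of 27845 RefSeq probe names, 25126 matched a gene of GRCm38.p6, a table used for names, neighbours and promoter windows and not for array coordinates. The probe with the highest mean stood for a gene, and all 14 member probes were also tested among 56605 probes. Fractions were compared with lmFit and eBayes (limma 3.58.1, R 4.3.3) with no covariate, and p values were adjusted after Benjamini and Hochberg over the 45616 features or the 56605 probes. The calculation was tested on simulated data. Adjusted p values of second probes are over all probes.

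Members, pathway and marker lists were chosen with earlier results of these data known. The genes named beyond the members were the pathway genes past the adjusted threshold, up to 4 with the largest differences in each direction that passed the unadjusted threshold without overlap, *Ins1*, *Ins2*, *Insrr*, the *Igfbp* family and the 2 closest profiles of each member, apart from the few that the report marks as named after their values were seen. Alternatives changed background correction, scaling, filter, outlier spots, variance model, probe choice, values, the replicate number as a block, and left out each array. Numbers were shared by 2 arrays per fraction, and the labels do not say whether equal numbers came from the same pool of pups. For this reason arrays were not treated as pairs. Deviations of arrays with equal numbers correlated at -0.0325 and 0.156. With 3 arrays per fraction these values cannot show whether pools were shared. The number of arrays limits the precision. Some genes of the pathway list are not reported here by value.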

Additional observations from a re-analysis of the deposited data

How the results depend on the processing

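Settings are counted here without the one reported. *Igf1*, *Igfbp3* and *Igfbp4* as genes and the second *Igf2* probe were lower past the unadjusted threshold wherever they had a value. These were 19, 19, 20 and 17 settings. *Irs1* and *Irs2* passed in 0 of 20. As genes, *Igf2* passed in 15 of 20, 3 of these with the other probe or with both averaged, *Igf1r* in 14 of 19 and *Insr* in 13 of 20. The 6 member genes lower at the unadjusted threshold became 2 in the authors' table, which listed only 6 of the 10, and 3 to 6 with 1 array left out, the lowest without Wnt4low replicate 4. In limma, 0 genes passed the adjusted threshold, against 1 with the processed signal, with median centring, with the filter on dim probes and with the random replicate block, and 2 with the probe of smallest p. By probe, 7 lower became 4 to 8 with 1 array left out (4 without Wnt4low replicate 4), and the 1 adjusted probe became 2 under those first 4 settings and 0 in the plain unpaired test, under the fixed replicate block and with any array left out. The fixed replicate block left the 6 at 6 but took the call from *Igf1r* (-0.61) and *Insr* (-0.52) and gave it to *Igf2r* (-0.68) and *Igfbp5* (-1.63). The median of the pathway list was 0.026 in the authors' table and -0.00072 without Wnt4hi replicate 4. The list had 5 lower and 2 higher in the plain test, and 6 to 9 lower (6 without Wnt4hi replicate 3) and 1 to 6 higher (1 without Wnt4low replicate 1) with an array left out. Over all features, the 201 adjusted calls became 508 with the dim filter, 368 with the smallest p, 406 in the authors' table, 0 in the plain test and the fixed block, and 0 to 9 with an array left out. Directions turned for *Irs1* (-0.93 to 0.50 with an array left out) and *Irs2* (-0.13 to 0.23) without Wnt4hi replicate 3, and for the second *Insr* probe (-0.051 to 0.59) without Wnt4low replicate 4. Rows of the authors' table list 1 probe but, for the 3 members with a pair of probes, lay closer to their mean than to the listed probe: for *Igf2* the SD of the difference over 5 arrays, without Wnt4hi replicate 2, was 0.0376 from the mean and 0.314 from the listed probe (0.278 and 0.658 over all 6, and 0.244 from the brighter probe). *Igf2* there differed by -1.66, with Wnt4hi replicate 2 at 12.83 against 11.20 and 11.37, and *Insr* by -0.20. In that table, the column of Wnt4hi replicate 2 correlated with that array's scanner values at 0.902 and with those of Wnt4hi replicate 3 at 0.919. The causes of these changes were not tested.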
